A study of Homo sapiens with 26 samples.

Results

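The 40 genes described here encode proteins that make ribosomes in the nucleolus: subunits and factors of RNA polymerase I, core proteins of the small nucleolar ribonucleoproteins (snoRNPs), assembly factors of both ribosomal subunits, and abundant nucleolar RNA-binding proteins. They were listed by name, with earlier results of these data known, and were found by gene symbol among the 63086 genes listed in each library. Poly(A) RNA had been sequenced from HCT116 human colorectal carcinoma cells that carried Tet-OsTIR1-PURO, were labelled IGF2BP2 KO and IGF2BP3 KO, and expressed mCherry-IGF2BP1 as WT, S181E, Y396E or RQ. IGF2BP1 is an RNA-binding protein that binds many messenger RNAs. S181E and Y396E put glutamate, which mimics a phosphate, in place of a serine and a tyrosine in its disordered linkers, and RQ puts glutamine in place of arginines of the first linker. The transgenes came from a lentivirus with an hPGK promoter in cells derived from knockout clones, and each of the 4 was a population sorted on a narrow mCherry gate. Each mutant was 1 such population, so a mutation and other differences between populations cannot be told apart in any comparison with WT. Every population was given PBS (control) or 500 µM sodium arsenite for 2 h, an oxidative stress, with 3 libraries from separately plated dishes in each of the 8 groups. Parental HCT116 cells, without the knockouts or the transgene, gave 1 library per treatment. The comparisons asked how the 40 transcripts responded to arsenite in each population, and how the mutants differed from WT in either treatment.

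Ribosome production begins when RNA polymerase I transcribes the large precursor of the 18S, 5.8S and 28S ribosomal RNAs. The snoRNPs modify the precursor, the U3 snoRNP and the UTP complexes fold it into the small subunit processome, and a separate set of factors builds the large subunit. Messenger RNAs for these factors are made by RNA polymerase II and often change together, and many are known targets of the transcription factor MYC in colorectal cancer cells. The values below are levels of those messenger RNAs and not of ribosomal RNA, which poly(A) selection leaves out.

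Libraries held 22508145 to 50834401 counts in genes, and 39 of the 40 members were among the 9099 protein-coding genes tested. The lowest count of a tested member in any library was 339, so none passed the filter through a single group. Levels are given as CPM, a gene's counts relative to the scaled total of its library, so they are shares: in bulk RNA, fewer cells that make a transcript and less of it per cell cannot be told apart. EPCAM ranged from 309 to 492 CPM and KRT8 from 823 to 2395 CPM over the 24 libraries of the 4 populations, as an epithelial line has. Of 6 markers of blood, vessel and connective tissue cells 5 stayed at or below 0.249 CPM and COL1A1 was at 6.55 to 11.5 CPM. IGF2BP1 RNA was lowest in WT in both treatments. Its group means in control were 12.1 CPM in WT, 14.4 in RQ, 16.5 in Y396E and 18.6 in S181E. In arsenite they were 29.2 CPM in WT, 47.1 in RQ, 43.2 in Y396E and 43.3 in S181E. The parental libraries held 0.340 CPM in control and 0.651 CPM in arsenite. IGF2BP2 RNA was at 62.3 to 91.3 CPM and IGF2BP3 RNA at 109 to 166 CPM despite the knockout labels, and RNA levels do not report the protein. Replicate 3 of Y396E in arsenite stood apart, with counts in 13897 genes against at least 20850 in each of the other 23 libraries, and the calls between Y396E and WT that rest on it are given without it too.

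Arsenite raised most of these messenger RNAs in WT cells. Of the 39 tested members 33 rose and 3 fell in edgeR's quasi-likelihood test (Benjamini-Hochberg adjusted p under 0.05 and a fold change above 1.2, the rule for each call here), beside 36.3% of all tested genes called higher and 35.9% called lower. Their median log2 fold change was 0.82 against -0.01 for all tested genes. In 35 members every arsenite library lay above every WT control library, and in 3 every one lay below, as 42.7% and 43.4% of all tested genes did. The summed level of the members rose from 4907 to 5367 CPM in the WT control libraries to 8490 to 8561 CPM in the WT arsenite libraries.

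**Figure D1:**
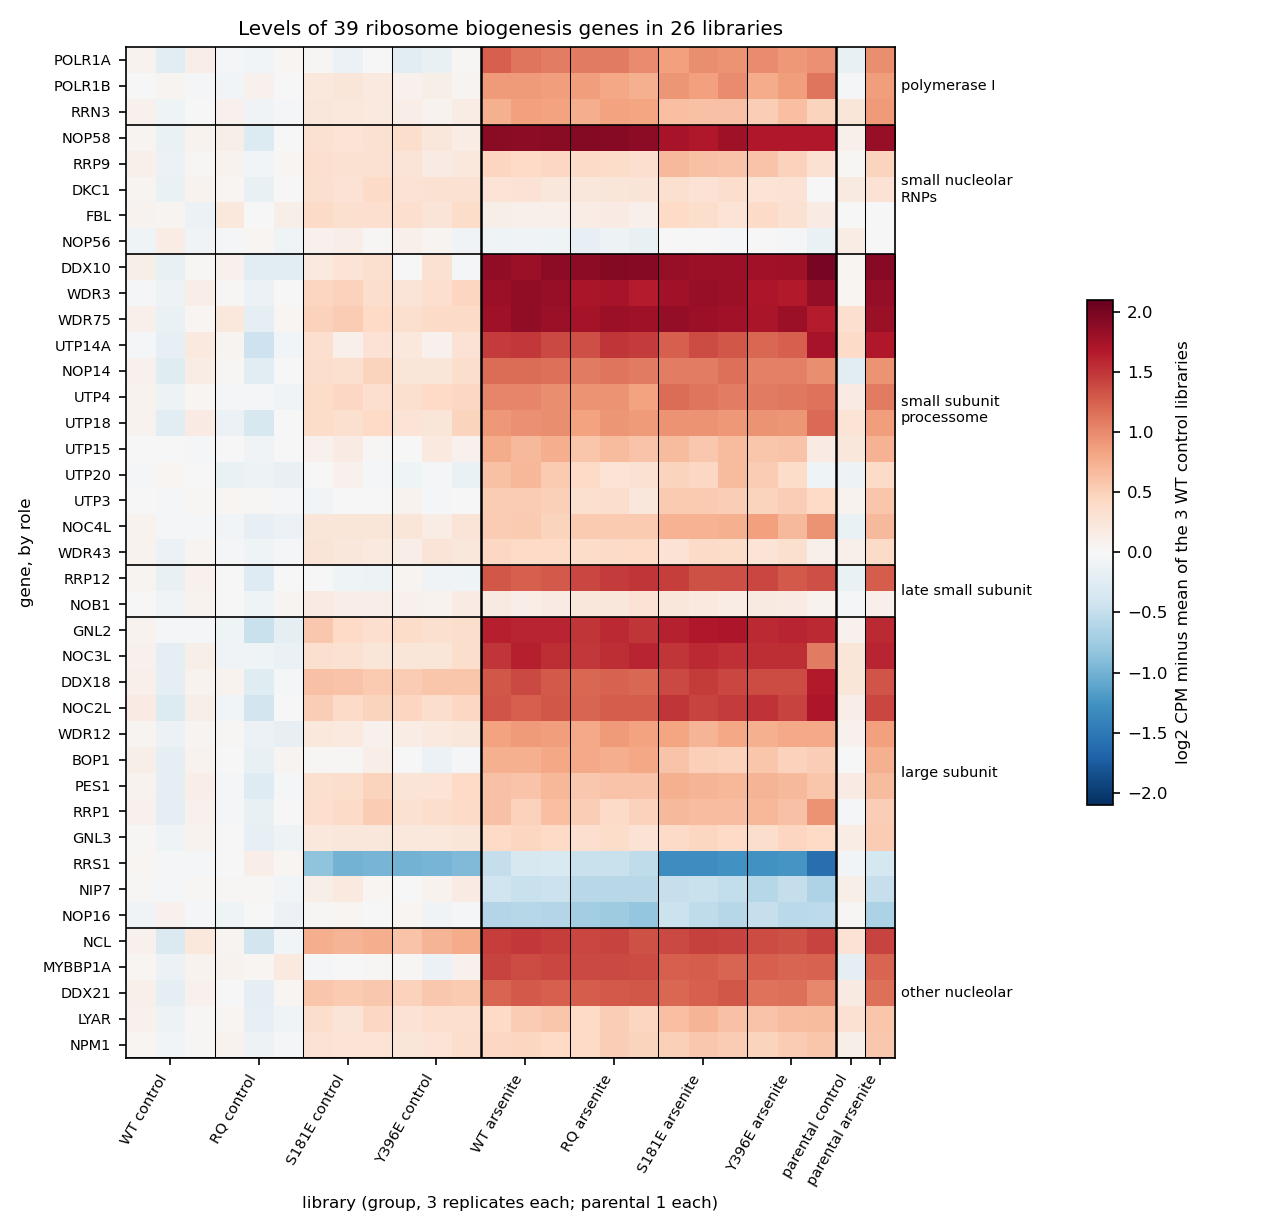
Level of the 39 tested members (rows, grouped by role) in the 26 libraries (columns, grouped by population and treatment), as log2 CPM minus the mean log2 CPM of the 3 WT control libraries. Red is higher and blue is lower. Most rows are red in every arsenite column, and NOP16, NIP7 and RRS1 are blue there.

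The promoters of the members at either end of this response are shown because these genes moved furthest with arsenite in WT: DDX10 and WDR3, which were among the 4 largest rises, and NOP16 and NIP7, which had the 2 largest falls. The RefSeq promoter table for GRCh38.p14 held 35 of the 40 members and gave no entry for NOP58, BOP1, DDX18, RRP12 and RRS1. GNL2 and NOC3L were added after the motif matches had been seen, as the 2 members with the largest WT rise among those holding an E-box. Each line runs 5′ to 3′ on the gene's own strand, from 250 bases before to 30 bases after the annotated start. Capitals mark matches on either strand to CACGTG (the E-box that MYC and other factors bind), CCGGAAG (the core that ETS factors bind), GCATGCGC (the core of the NRF1 motif) and GGGCGG (the GC box that SP1 binds), with overlapping matches counted separately. The windows lie at chr11:108664819-108665098 (+ strand), chr1:117929489-117929768 (+ strand), chr5:176388569-176388848 (- strand), chr16:69339522-69339801 (+ strand), chr1:37595908-37596187 (- strand) and chr10:94362910-94363189 (- strand).
DDX10: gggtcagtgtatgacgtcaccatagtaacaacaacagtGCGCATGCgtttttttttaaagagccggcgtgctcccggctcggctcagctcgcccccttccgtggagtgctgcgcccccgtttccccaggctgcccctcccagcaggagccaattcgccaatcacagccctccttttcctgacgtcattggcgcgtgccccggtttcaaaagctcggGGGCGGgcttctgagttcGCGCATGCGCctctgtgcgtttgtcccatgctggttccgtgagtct
WDR3: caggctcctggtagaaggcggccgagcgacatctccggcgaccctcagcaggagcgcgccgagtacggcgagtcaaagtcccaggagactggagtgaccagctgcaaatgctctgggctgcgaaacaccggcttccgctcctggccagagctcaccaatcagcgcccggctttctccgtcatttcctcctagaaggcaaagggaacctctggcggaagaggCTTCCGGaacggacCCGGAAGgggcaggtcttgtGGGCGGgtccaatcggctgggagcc
NOP16: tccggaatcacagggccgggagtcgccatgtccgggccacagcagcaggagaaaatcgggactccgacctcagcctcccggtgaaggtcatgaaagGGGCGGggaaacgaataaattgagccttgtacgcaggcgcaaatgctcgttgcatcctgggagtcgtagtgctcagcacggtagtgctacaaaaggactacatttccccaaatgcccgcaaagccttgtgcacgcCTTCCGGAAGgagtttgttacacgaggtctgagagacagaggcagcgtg
NIP7: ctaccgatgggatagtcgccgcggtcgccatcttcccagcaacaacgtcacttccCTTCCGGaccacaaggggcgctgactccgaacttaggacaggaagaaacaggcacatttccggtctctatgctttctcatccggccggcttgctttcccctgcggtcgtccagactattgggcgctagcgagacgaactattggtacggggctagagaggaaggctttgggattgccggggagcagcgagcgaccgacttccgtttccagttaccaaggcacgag
GNL2: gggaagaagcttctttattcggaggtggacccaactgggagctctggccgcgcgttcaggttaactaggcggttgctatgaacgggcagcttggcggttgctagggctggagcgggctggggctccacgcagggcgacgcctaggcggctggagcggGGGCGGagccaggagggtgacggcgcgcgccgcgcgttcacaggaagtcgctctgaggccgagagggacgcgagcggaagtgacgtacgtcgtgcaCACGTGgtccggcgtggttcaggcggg
NOC3L: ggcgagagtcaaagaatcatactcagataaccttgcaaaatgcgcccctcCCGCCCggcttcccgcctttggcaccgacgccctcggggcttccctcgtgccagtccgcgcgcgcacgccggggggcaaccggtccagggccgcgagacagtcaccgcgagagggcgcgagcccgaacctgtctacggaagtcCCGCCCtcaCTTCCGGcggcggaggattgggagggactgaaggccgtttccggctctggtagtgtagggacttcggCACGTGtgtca

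Within the full 300-base windows, from 250 bases before to 50 after the start, CACGTG was in 13 of the 35 members with an entry (37.1%), against 10.9% of 7508 tested genes and 7.4% of 27305 promoters in the table. These 13 were FBL, NOP2, NOP14, PES1, NOC3L, UTP4, UTP14A, UTP18, UTP20, WDR43, RRP9, GNL2 and MYBBP1A. CCGGAAG was in 13 members (37.1%, against 21.8% of tested genes and 10.7% of promoters), and GCATGCGC in 5 (14.3%, against 6.1% and 3.3%). GGGCGG was in 24 members (68.6%, against 74.3% and 44.6%). DDX10 held 3 matches to GCATGCGC, and neither its window nor those of WDR3, NOP16 and NIP7 held CACGTG. WDR3, which rose, and NOP16, which fell, held the same matches, 2 to CCGGAAG and 1 to GGGCGG. A match is a stretch of letters and was not tested as a binding site.

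NOP58, a core protein of the box C/D snoRNPs that guide methylation of ribosomal RNA, had the largest rise. It was at 92.7, 81.4 and 93.9 CPM in the WT control libraries and 332, 327 and 329.9 CPM in the WT arsenite libraries, with no overlap. The log2 fold change was 1.88 ± 0.07 (SE), a 3.69-fold rise (edgeR adjusted p = 8.77e-18). The helicase DDX10 rose from 23.6, 19.5 and 21.97 CPM to 78.3, 75.6 and 79.2 CPM, a log2 fold change of 1.84 ± 0.09 (edgeR adjusted p = 1.61e-15). WDR3, of the UTP-B complex, went from 27.6, 26.2 and 31.1 CPM to 97.8, 103 and 101 CPM (log2 fold change 1.83 ± 0.06, edgeR adjusted p = 4.13e-18). WDR75, of the UTP-A complex, went from 33.6, 28.2 and 31.9 CPM to 107, 113 and 109.6 CPM (log2 fold change 1.81 ± 0.07, edgeR adjusted p = 3.69e-17). In each of these 4 genes the arsenite libraries lay close together and more than 3 times above every control library.

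All 12 members of the small subunit processome rose in WT, with a median log2 fold change of 0.97. Besides DDX10, WDR3 and WDR75, UTP14A rose by 1.43 ± 0.12, NOP14 by 1.16 ± 0.07, UTP4 by 1.00 ± 0.05 and UTP18 by 0.94 ± 0.09 on the log2 scale. UTP15 rose by 0.74 ± 0.08, the large scaffold protein UTP20 by 0.62 ± 0.11, UTP3 by 0.52 ± 0.05, NOC4L by 0.51 ± 0.06 and WDR43 by 0.42 ± 0.06, which was the smallest rise of this set. The UTP-A members thus spanned a wide range, from WDR43 to WDR75. Of the late small subunit factors, RRP12 rose from 30.7 ± 2.699 to 74.6 ± 1.30 CPM (mean ± SD, n = 3), a log2 fold change of 1.28 ± 0.07. NOB1, the endonuclease that makes the 3′ end of 18S ribosomal RNA, had a log2 difference of 0.17 ± 0.05 (edgeR adjusted p = 0.0023), below the 1.2-fold limit.

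The 3 RNA polymerase I genes rose too. POLR1A, the largest subunit, went from 28.0 ± 3.56 to 61.7 ± 4.17 CPM (mean ± SD, n = 3), a log2 fold change of 1.14 ± 0.08. POLR1B, its partner at the catalytic centre, rose by 0.89 ± 0.07 and the initiation factor RRN3 by 0.82 ± 0.06. Among the 5 snoRNP genes 3 rose and the median log2 fold change was 0.27. NOP58 led them, followed by the U3-specific protein RRP9 (0.43 ± 0.06) and the pseudouridine synthase DKC1 (0.27 ± 0.07). DKC1 lay at the fold limit and was not called without replicate 2 of the WT control (0.20), or with no filter or another filter on low counts (0.25 for both). FBL and NOP56, which also belong to the core of the box C/D snoRNPs, did not pass the test: FBL, the methyltransferase, had a log2 difference of 0.11 ± 0.06 (edgeR adjusted p = 0.096) and NOP56 one of -0.09 ± 0.06 (edgeR adjusted p = 0.124). NOP56 lay at 416, 493 and 423 CPM in control and 414, 418 and 416 CPM in arsenite, and the groups overlapped. With library totals alone FBL was called higher, at 0.27.

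Of the 12 tested large subunit members 9 rose and 3 fell, with a median of 0.69. GNL2, a nucleolar GTPase, rose by 1.61 ± 0.07 and NOC3L by 1.55 ± 0.10, with its partner NOC2L at 1.27 ± 0.09 and the helicase DDX18 at 1.32 ± 0.08. The 3 proteins of the PeBoW complex, which acts on the 28S and 5.8S precursors, rose in a narrow range: WDR12 by 0.87 ± 0.06, BOP1 by 0.76 ± 0.06 and PES1 by 0.63 ± 0.07. RRP1 rose by 0.57 ± 0.08 and GNL3 (nucleostemin) by 0.42 ± 0.04. The 5 other nucleolar proteins all rose, with a median of 1.25. MYBBP1A, a nucleolar regulator of transcription, rose from 57.5 ± 3.99 to 151 ± 2.09 CPM (mean ± SD, n = 3), a log2 fold change of 1.39 ± 0.05. NCL (nucleolin) rose by 1.45 ± 0.09, the helicase DDX21 by 1.25 ± 0.06, LYAR by 0.51 ± 0.06 and NPM1 (nucleophosmin) by 0.43 ± 0.05. NPM1 started from the highest level per exon length of all 40 genes, 352 CPM per kb in WT control, and went from 1224 ± 41.3 to 1654 ± 14.4 CPM.

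The 3 members that fell in WT were all large subunit factors. NOP16 was at 117, 131 and 122 CPM in control and 80.2, 81.0 and 80.2 CPM in arsenite, a log2 fold change of -0.61 ± 0.05 (edgeR adjusted p = 3.83e-11). NIP7, which acts in pre-ribosomal RNA processing, was at 120.4, 116 and 120.4 CPM and 88.8, 86.4 and 86.7 CPM, a log2 fold change of -0.45 ± 0.05 (edgeR adjusted p = 1.12e-08). RRS1, which helps to bring the 5S ribonucleoprotein into the large subunit, was at 81.8, 77.9 and 77.7 CPM and 55.6, 62.4 and 63.1 CPM, a log2 fold change of -0.39 ± 0.07 (edgeR adjusted p = 1.28e-05). Control and arsenite libraries did not overlap in any of the 3. With library totals alone as the scaling, which moved the median of all tested genes to 0.15, the difference of RRS1 was -0.23 and it was no longer called.

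Most members rose in the other populations too, which have no library in common with WT in this contrast. In RQ 34 members rose and 3 fell (37.1% and 35.8% of all tested genes), with a median of 0.81. In S181E 28 rose and 3 fell (32.0% and 33.3% of all tested genes), with a median of 0.55, and in Y396E 28 rose and 3 fell (32.9% and 32.9%), with a median of 0.57. In all 4 populations 27 members rose, and NOP16, NIP7 and RRS1 fell in each. The share of all tested genes called alike in all 4 is not given here, so this overlap has no background beside it. The parental cells, with 1 library per treatment and so no test, had 31 members higher and 3 lower by more than 1.2-fold, where 36.8% and 33.2% of all tested genes were past that fold, with a median log2 ratio of 0.73 against 0.01 for all tested genes. Parental NOP58 went from 96.1 to 316 CPM and parental NCL from 608 to 1321 CPM.

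**Figure D2:**
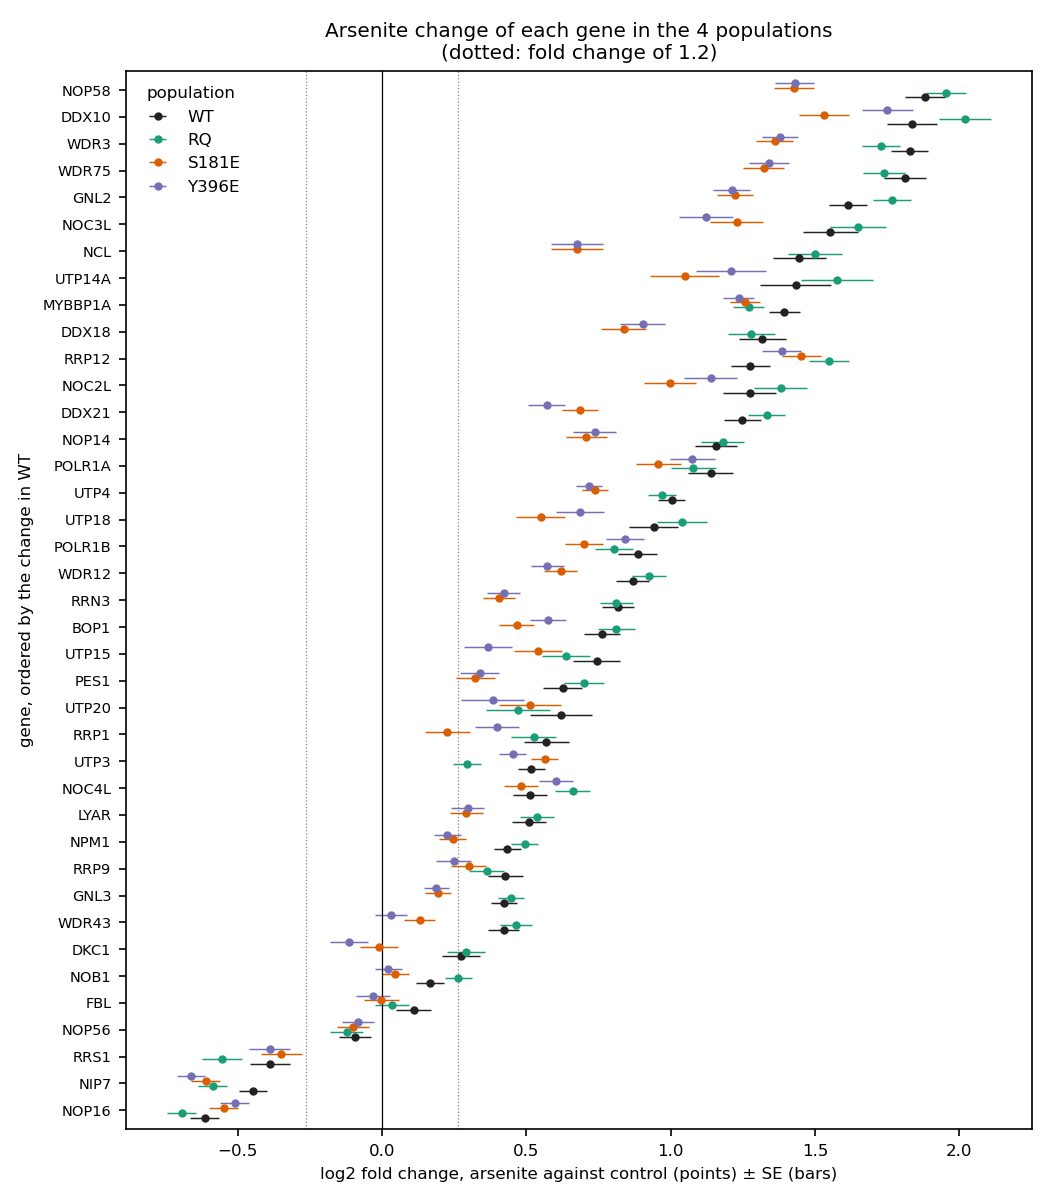
Log2 fold change in arsenite against control (x axis) of the 39 tested members (y axis, ordered by the WT change) in the 4 populations; points are edgeR estimates, bars are ± SE, and dotted lines mark 1.2-fold. WT and RQ run together, S181E and Y396E lie to their left for most members that rose, and NOP16, NIP7 and RRS1 lie left of 0 in each population.

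The fitted changes were smaller in the phosphomimetic populations for most members, and the test of that difference follows the levels in control. The change was below that of WT in 35 of 39 members in S181E, in 35 in Y396E and in 18 in RQ. It was above that of WT in 4, 4 and 21 members, and in 4106, 4286 and 4774 of all 9099 tested genes. The count over all genes pools genes that rose and genes that fell in WT. Those that rose, as most members did, were not counted apart, so a smaller response particular to the members was not tested. Over the 25 members that changed by more than 1.5-fold in WT, the median share of the WT log2 change was 0.74 in S181E, 0.74 in Y396E and 1.04 in RQ. These 25 were picked by the same WT change that the share is divided by, which by itself can lower the share. No share for all tested genes picked alike is given. DKC1, GNL3, NPM1, RRP1 and WDR43 were called higher in WT and not in S181E, and DKC1, GNL3, NPM1, RRP9 and WDR43 in WT and not in Y396E. In the test of the difference in response, GNL3 and NPM1 were not called in S181E or Y396E, nor RRP9 in Y396E. NOB1, at 0.26 ± 0.05 in RQ, lay at the fold limit and was not called by DESeq2 (0.25) or without replicate 2 of the RQ control (0.22). MYBBP1A and RRP12 kept large rises in both phosphomimetic populations, with log2 fold changes of 1.26 ± 0.05 and 1.45 ± 0.07 in S181E and 1.24 ± 0.05 and 1.39 ± 0.07 in Y396E. Across the 39 members the changes in S181E, Y396E and RQ had Pearson correlations of 0.962, 0.954 and 0.990 with those in WT, a description over genes that share libraries and depth.

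Without arsenite, many members were higher in both phosphomimetic populations than in WT. As each mutant was 1 population, the mutation and other differences between populations cannot be told apart here. In S181E 20 of 39 members were higher and 1 was lower (15.7% and 15.4% of all tested genes), with a median of 0.27 against 0.02 for all tested genes. In Y396E 17 were higher and 1 was lower (14.5% and 14.2%), with a median of 0.23. Both comparisons use the same WT control libraries. The summed level of the members was 6450 ± 42.3 CPM in S181E and 6311 ± 139 CPM in Y396E (mean ± SD, n = 3), above the 5212 ± 264 CPM of WT. The WT control libraries differed among themselves: replicate 2 was the lowest of the 3 for 32 of 39 members. Without it 15 members were called in S181E and 13 in Y396E. With library totals alone, which moved the median of all tested genes to 0.18 and 0.14, 29 were higher in S181E and 23 in Y396E. The counts without that replicate and with library totals have no share of all tested genes beside them.

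NCL, the abundant nucleolar protein that binds ribosomal RNA precursors, had the largest called difference above WT in both. In control it was at 526, 401 and 576 CPM in WT, 837, 814 and 836 CPM in S181E and 749.6, 809 and 851 CPM in Y396E. Every S181E and Y396E library lay above every WT library, by a log2 difference of 0.73 ± 0.09 (SE; edgeR adjusted p = 6.87e-07) and 0.68 ± 0.09 (edgeR adjusted p = 1.98e-06). The parental control library, without a replicate, held 608 CPM of NCL, between WT and the phosphomimetic libraries. DDX18 was at 55.8, 45.4 and 54.6 CPM in WT, 79.5, 77.9 and 75.3 CPM in S181E and 75.0, 77.6 and 77.5 CPM in Y396E. These groups did not overlap either, with log2 differences of 0.58 ± 0.08 (edgeR adjusted p = 3.02e-06) and 0.56 ± 0.08 (edgeR adjusted p = 5.55e-06). DDX21, a helicase that links RNA polymerase I transcription with ribosomal RNA processing, was at 129, 104 and 128 CPM in WT, 180.6, 175 and 178 CPM in S181E and 168, 178 and 176 CPM in Y396E. Its log2 differences from WT were 0.56 ± 0.06 and 0.53 ± 0.06 (edgeR adjusted p = 1.62e-07 and 4.77e-07), again with no overlap of libraries.

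By role, 4 of 5 snoRNP genes, 6 of 12 processome genes, 6 of 12 large subunit genes and 4 of 5 other nucleolar genes were higher in S181E than in WT in control, while POLR1A, POLR1B and RRN3 had uncalled differences of -0.04 ± 0.08, 0.23 ± 0.07 and 0.21 ± 0.06. With library totals alone POLR1B (0.39) and RRN3 (0.37) were called higher. FBL, which had not passed the test in arsenite, was higher here, at 469 ± 9.69 CPM in S181E, 459.8 ± 19.6 CPM in Y396E and 365 ± 27.6 CPM in WT (mean ± SD, n = 3), with log2 differences of 0.36 ± 0.06 and 0.33 ± 0.06. DKC1 was higher by 0.34 ± 0.07 and 0.31 ± 0.07, and NOP58 by 0.30 ± 0.07 in S181E, with an uncalled difference of 0.25 ± 0.07 in Y396E. RRP9, also of the snoRNPs, was higher by 0.32 ± 0.06 in S181E, and its difference of 0.22 ± 0.06 in Y396E was below 1.2-fold. Of the processome genes, WDR75 was higher by 0.47 ± 0.07 in S181E and 0.37 ± 0.07 in Y396E, WDR3 by 0.43 ± 0.07 and 0.35 ± 0.07, UTP4 by 0.39 ± 0.05 and 0.39 ± 0.05, and UTP18 by 0.37 ± 0.09 and 0.33 ± 0.09. Of the large subunit genes, NOC2L, GNL2, RRP1 and PES1 were higher in S181E by 0.45 ± 0.09, 0.45 ± 0.07, 0.42 ± 0.08 and 0.39 ± 0.07. They were higher in Y396E by 0.40 ± 0.09, 0.36 ± 0.07, 0.35 ± 0.08 and 0.31 ± 0.07. LYAR (0.36 ± 0.06 and 0.34 ± 0.06) and NPM1 (0.29 ± 0.05 and 0.30 ± 0.05) were higher in both, while MYBBP1A differed by -0.01 ± 0.05 and -0.003 ± 0.05, neither called.

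**Figure D3:**
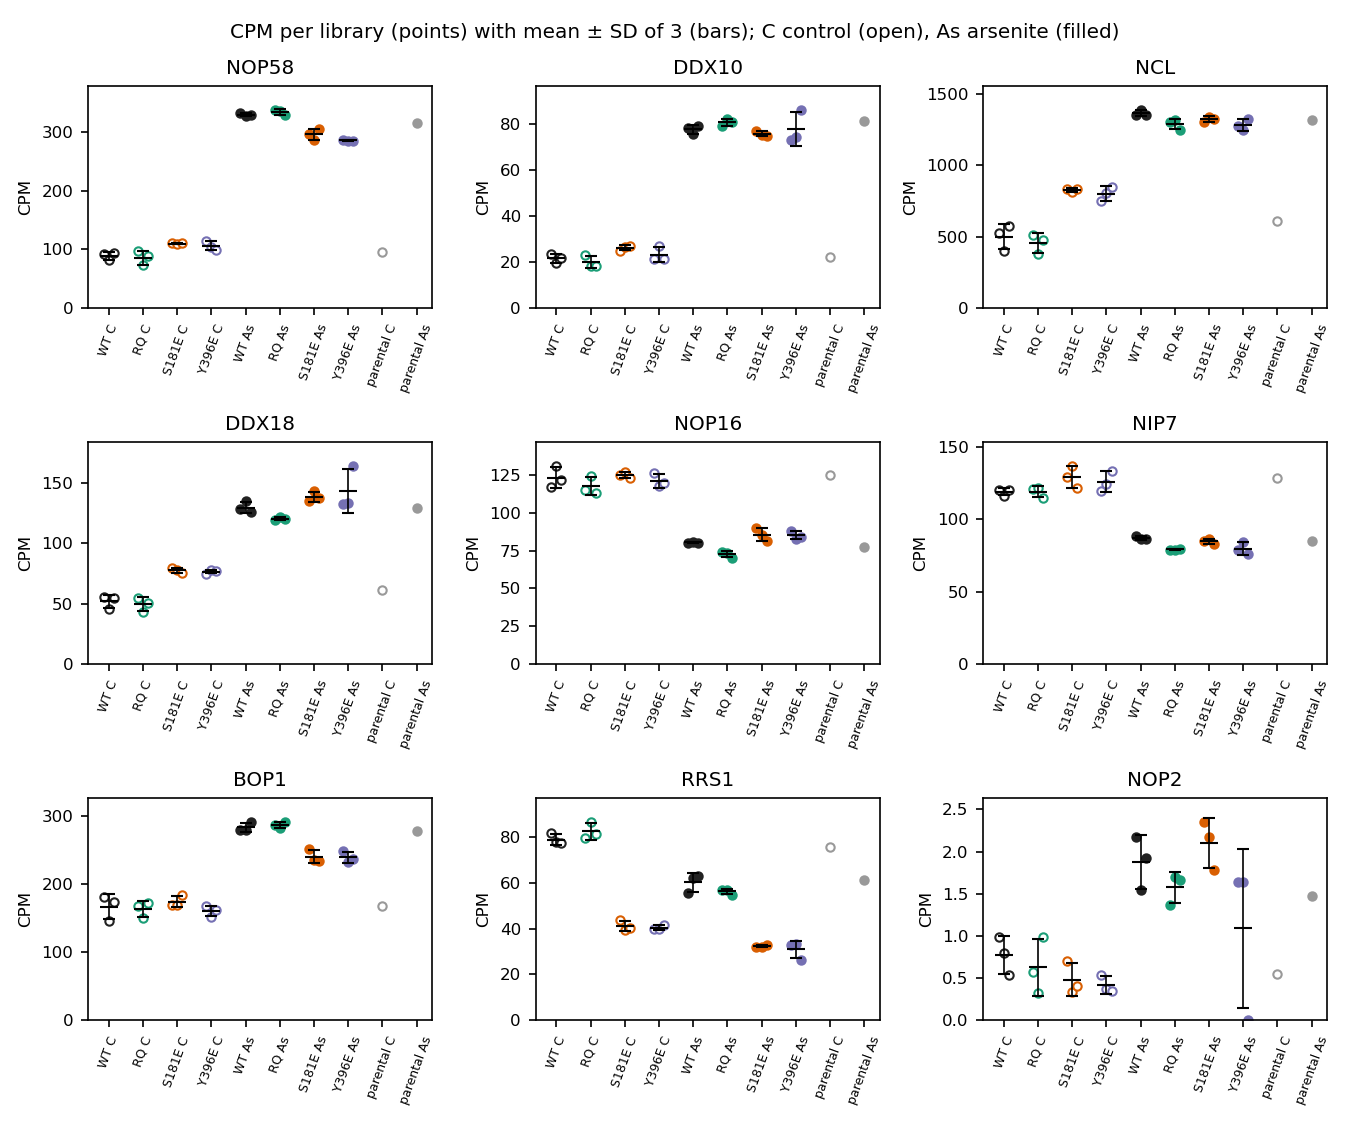
CPM (y axis, starting at 0) of 9 members in every library, by population and treatment; points are libraries, and lines and bars are the mean ± SD of 3 libraries (parental groups have 1 point). In control NCL and DDX18 lie above WT in both S181E and Y396E, in arsenite they lie close to it, RRS1 is lower in both treatments, and the scale of NOP2 is far lower than the others.

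In arsenite these differences from WT were small. Between S181E and WT 0 members were higher and 1 was lower in edgeR's quasi-likelihood test (5.32% and 8.42% of all tested genes), with 6 higher and 6 lower at an unadjusted p under 0.05 and 0 higher and 1 lower in DESeq2. Between Y396E and WT 1 member was higher and 4 were lower (9.77% and 11.9% of all tested genes), with 7 higher and 11 lower at an unadjusted p under 0.05 and 2 higher and 4 lower in DESeq2. With library totals alone as the scaling these counts were 2 higher and 1 lower in S181E, and 2 higher and 2 lower in Y396E. The 20 members that were higher in S181E in control, by 0.27 to 0.73, had differences of -0.15 to 0.25 in arsenite. The 17 that were higher in Y396E in control, by 0.28 to 0.68, had differences of -0.15 to 0.26 in arsenite. No gene of either set was among those called higher in arsenite by edgeR. Both sets were picked by their differences in control, and that choice by itself favours smaller differences in arsenite. NCL was at 1353, 1390 and 1352 CPM in WT, 1302, 1343 and 1329 CPM in S181E and 1276, 1249 and 1326 CPM in Y396E, and the S181E and Y396E libraries lay just under those of WT, with log2 differences of -0.04 ± 0.09 and -0.09 ± 0.09. NOC4L was the member higher in Y396E (0.32 ± 0.06), and RRS1 (-0.97 ± 0.07), UTP15 (-0.28 ± 0.08), UTP20 (-0.33 ± 0.10) and RRN3 (-0.28 ± 0.05) were the 4 lower ones. Without replicate 3 of Y396E in arsenite only RRS1 was called, and NOC4L, UTP15, UTP20 and RRN3 were at 0.25, -0.15, -0.17 and -0.24.

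The arsenite response itself was tested against that of WT as an interaction. In S181E 0 members had a larger response and 16 a smaller one in edgeR's quasi-likelihood test (6.98% and 9.41% of all tested genes), with a median difference of -0.27 against -0.03 for all tested genes. At an unadjusted p under 0.05 the counts were 0 and 25, and DESeq2 gave 0 and 15. In Y396E 0 had a larger and 16 a smaller response (10.3% and 11.1%), with a median of -0.22 against -0.02 for all tested genes. At an unadjusted p under 0.05 the counts were 0 and 25, and DESeq2 gave 0 and 16. The counts at an unadjusted p, from DESeq2 and without a library have no share of all tested genes beside them. Both interactions use the WT libraries of either treatment, and the difference in control enters each with its sign turned. NCL rose by 1.45 ± 0.09 in WT, 0.68 ± 0.09 in S181E and 0.68 ± 0.09 in Y396E on the log2 scale. The responses differed from WT by -0.77 ± 0.13 (edgeR adjusted p = 3.78e-04) and -0.77 ± 0.13 (edgeR adjusted p = 2.73e-04). DDX21 went to 278, 294 and 288 CPM in WT, 277, 286 and 296 CPM in S181E and 266, 266 and 242 CPM in Y396E. Its response differed from that of WT by -0.56 ± 0.09 (edgeR adjusted p = 2.33e-04) in S181E and -0.68 ± 0.09 (edgeR adjusted p = 1.98e-05) in Y396E. Among the roles, 6 of 12 processome genes and 5 of 12 large subunit genes had a smaller response in S181E, with 2 of 5 snoRNP genes, 2 of 5 other nucleolar genes and 1 of 3 RNA polymerase I genes. NOP58 rose to 296, 288 and 305 CPM in S181E and 287, 286 and 286 CPM in Y396E, below every WT arsenite library, and the difference of its response from that of WT was -0.46 ± 0.10 and -0.45 ± 0.10. DKC1, which rose in WT, had log2 differences of -0.01 ± 0.07 in S181E and -0.12 ± 0.07 in Y396E with arsenite. Without replicate 2 of the WT control 9 members had a smaller response in S181E and 12 in Y396E. Without replicate 3 of Y396E in arsenite the counts were 19, with NOC3L, UTP14A and DDX10 added in S181E, and 17 in Y396E, where PES1 (-0.25) and UTP15 (-0.25) were lost and UTP14A, UTP18 and RRP1 were added.

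**Figure D4:**
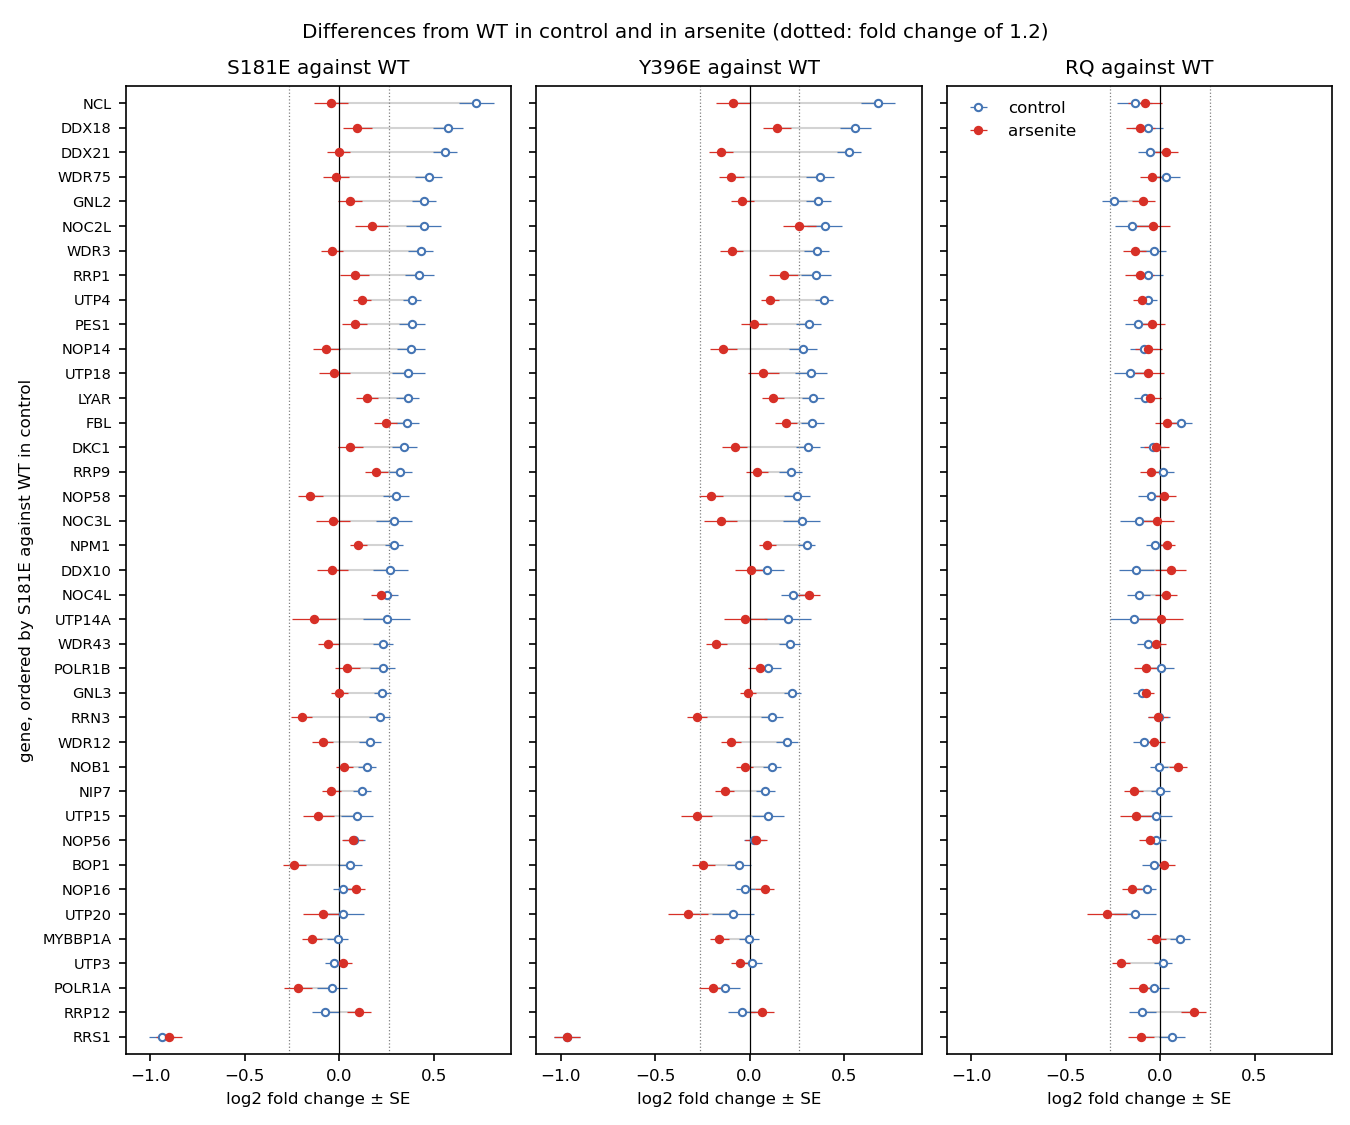
Log2 difference from WT (x axis) of the 39 tested members (y axis) for S181E, Y396E and RQ, in control (open points) and in arsenite (filled points); bars are ± SE and dotted lines mark 1.2-fold. Most open points lie right of 0 for S181E and Y396E and most filled points lie near 0, RRS1 lies near -0.9 in both treatments, and the RQ points lie between -0.28 and 0.18.

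No member was called between RQ and WT in either treatment with all libraries in the fit. In control 0 members were higher and 0 lower in edgeR's quasi-likelihood test (1.00% and 0.429% of all tested genes), with 0 higher and 2 lower at an unadjusted p under 0.05 and 0 in either direction in DESeq2. The differences ranged from -0.24 to 0.11, with a median SE of 0.07, and the smallest adjusted p was that of GNL2 (-0.24 ± 0.07, edgeR adjusted p = 0.0572). In arsenite 0 were higher and 0 lower (1.36% and 0.154%), with 1 higher and 6 lower at an unadjusted p under 0.05 and 0 in DESeq2. The differences ranged from -0.28 to 0.18, and UTP3 had -0.21 ± 0.05 (edgeR adjusted p = 0.0149), below the 1.2-fold limit. The lowest was UTP20 at -0.28 ± 0.11 (edgeR adjusted p = 0.244), which was called with only the compared groups in the fit and without replicate 3 of Y396E in arsenite (-0.29). The response in RQ differed from that in WT for 0 members (0.220% of all tested genes higher and 0% lower), with 1 higher and 1 lower at an unadjusted p under 0.05, 0 in DESeq2, and differences from -0.22 to 0.27. NCL in RQ was at 514, 380.4 and 475 CPM in control and 1303, 1319 and 1251 CPM in arsenite, with the control libraries overlapping those of WT. Replicate 2 was the lowest RQ control library for 28 of 39 members, as replicate 2 was in WT. Without replicate 2 of the WT control 3 members were lower in RQ control: NCL at -0.27, NOC2L at -0.28 and GNL2 at -0.26.

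BOP1 and RRS1 lie on chromosome 8, in the stretch from position 43140464 to the chromosome end (hg38) where most genes were lower in S181E and Y396E. The start of that stretch was set from earlier results of these data. Its 207 tested genes had a median log2 difference from WT of -0.62 in S181E control and -0.60 in Y396E control, and of 0.02 in RQ control. In Y396E 187 of the 207 were called lower in control, and in arsenite 191 were in S181E and 186 in Y396E. RRS1 (chr8:66429014-66430733, + strand) followed the stretch, at 43.9, 39.6 and 40.2 CPM in S181E control and 39.8, 40.01 and 41.7 CPM in Y396E control, all under every WT library (81.8, 77.9 and 77.7 CPM). Its log2 differences were -0.94 ± 0.07 (edgeR adjusted p = 9.89e-11) and -0.96 ± 0.07 (edgeR adjusted p = 6.90e-11) in control, and -0.90 ± 0.07 and -0.97 ± 0.07 in arsenite. RRS1 was the 1 member lower in S181E in control and in arsenite, and the 1 lower in Y396E in control. Its 7 tested neighbours within 1 Mb had medians of -0.62 and -0.69 in control.

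BOP1 (chr8:144262045-144291438, - strand) did not follow the stretch in control. It was at 180.5, 146 and 174 CPM in WT, 169.6, 169 and 184 CPM in S181E, 167, 152 and 162 CPM in Y396E and 168, 150.1 and 172 CPM in RQ, and the groups overlapped. The log2 differences from WT were 0.06 ± 0.06 in S181E (edgeR adjusted p = 0.464) and -0.06 ± 0.06 in Y396E (edgeR adjusted p = 0.483). Of the 207 genes 203 had a lower difference than BOP1 in S181E and 201 in Y396E. The 48 tested neighbours within 1 Mb had a median of -0.72 in S181E control, with a range of -1.43 to -0.15 and 46 called lower, and a median of -0.67 in Y396E control with 47 called lower. In arsenite BOP1 was at 280, 279 and 291 CPM in WT, 252, 236 and 234 CPM in S181E and 248, 232 and 237 CPM in Y396E. Both phosphomimetic groups then lay below every WT library, with log2 differences of -0.24 ± 0.06 (edgeR adjusted p = 0.00631) and -0.24 ± 0.06 (edgeR adjusted p = 0.00347), under the 1.2-fold limit, while its neighbours had medians of -0.58 and -0.56. Its rise with arsenite was 0.76 ± 0.06 in WT and 0.47 ± 0.06 in S181E, a difference of -0.30 ± 0.09 (edgeR adjusted p = 0.0218). That call was lost without replicate 2 of the WT control (-0.21), replicate 3 of the S181E control (-0.25) or replicate 3 of WT in arsenite (-0.28). In Y396E the rise was 0.57 ± 0.06, and its difference from WT was -0.19 ± 0.09, not called.

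**Figure D5:**
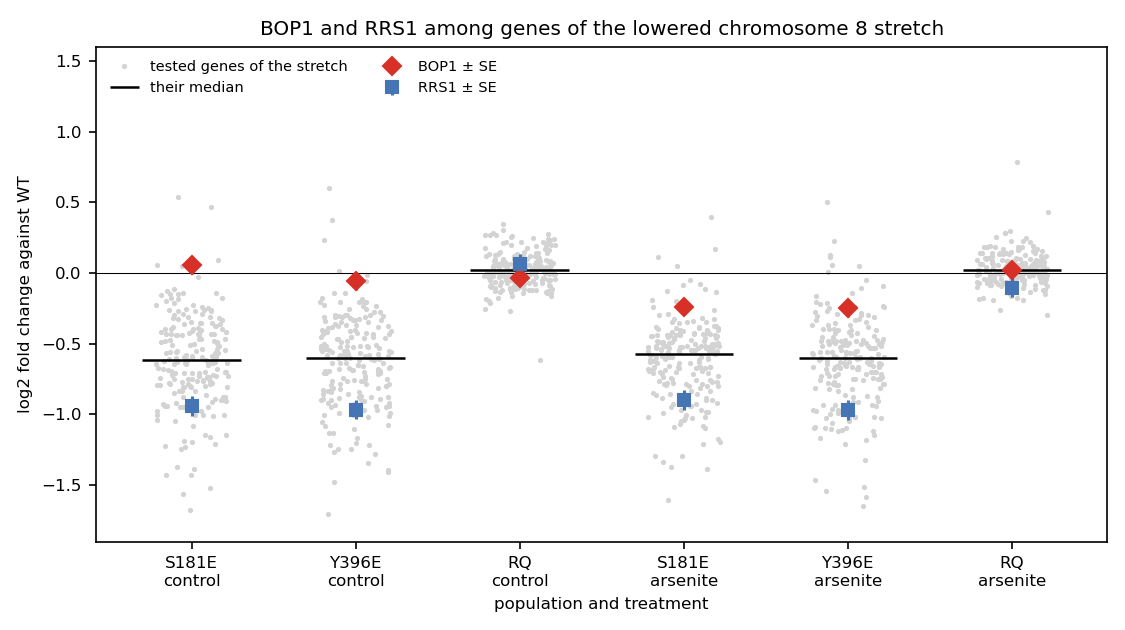
Log2 difference from WT (y axis) of the 207 tested genes of the chromosome 8 stretch (grey points) for 3 mutants in control and in arsenite, with the median as a line and BOP1 and RRS1 marked. In S181E and Y396E the medians lie near -0.6, RRS1 lies below them and BOP1 near the top of the points in control; in RQ all medians lie near 0.

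NOP2, which methylates 28S ribosomal RNA, could not be tested. Its counts ranged from 0 to 84 and its group means from 0.42 to 2.1 CPM, the lowest level per exon length of the 40 genes. In WT it was at 0.769 ± 0.225 CPM in control and 1.88 ± 0.321 CPM in arsenite (mean ± SD, n = 3). Another annotated protein-coding gene covers 2538 of its 3579 exon bases (70.9%) on the same strand, and that gene's highest count was 6, so the level of NOP2 is uncertain.

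Other genes of the pathway, which are not among the 40, had smaller medians. Of 98 tested genes 60 rose and 12 fell with arsenite in WT, with a median of 0.40, beside 36.3% and 35.9% of all tested genes. In control 29 were higher and 2 lower in S181E, beside 15.7% and 15.4%, and 19 higher and 2 lower in Y396E, near the 14.5% of all tested genes called higher. The interaction term was called lower for 18 of the 98 in S181E and for 18 in Y396E, beside 9.41% and 11.1% of all tested genes. It was called higher for 1 in each. A lower term is a smaller response only for genes that rose in WT, and not all of these did. The acetyltransferase NAT10 had the largest rise in WT (1.92 ± 0.06), followed by DDX24 (1.87 ± 0.10), and the largest falls were those of POLR1C (-1.02 ± 0.08), a subunit shared by RNA polymerases I and III, and NOP10 (-0.96 ± 0.06), a box H/ACA core protein. The 3 tested box H/ACA genes on this list had a median of -0.75, with 2 called lower. The cytosolic ribosomal protein genes went the other way: 71 of 75 fell with arsenite in WT (median -0.69), with 67 lower in S181E (median -0.47), 65 in Y396E (median -0.46) and 71 in RQ (median -0.68). Their median fall was thus also smaller in S181E and Y396E. The interaction term of these genes lay above 0 for 74 of the 75 in S181E and for 75 in Y396E. It was called higher for 6 and 17, beside 6.98% and 10.3% of all tested genes, and lower for 0 in both. MYC fell in WT from 519 ± 4.13 to 263 ± 3.69 CPM (mean ± SD, n = 3), a log2 fold change of -0.98 ± 0.05, and fell by 0.77 in S181E, 0.66 in Y396E and 1.03 in RQ on the log2 scale.

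Members with larger rises in WT tended to have more exons and lower starting levels. Across the 39 tested members the WT change had a Spearman correlation of 0.65 with the number of exon blocks, 0.57 with the gene span, 0.47 with the exon length and -0.56 with the WT control level per kb. Over all 9099 tested genes the same correlations were 0.49, 0.24, 0.18 and -0.39. These are descriptions across genes that share libraries, and the features are not independent of each other. Members had a median of 15 exon blocks, against 10 for all tested genes, but a shorter exon length (2958 against 3931 bases) and gene span (24695 against 30459 bases). The falling NOP16, NIP7 and RRS1 stood at 69.0, 42.3 and 45.99 CPM per kb in WT control, while DDX10 and WDR3 stood at 2.83 and 2.79 CPM per kb. The order of starting levels ran from NPM1 (352), FBL (325) and NOP56 (232) at the top to POLR1A (2.19) and UTP20 (1.63) above NOP2 at the bottom, all in CPM per kb. The members lie on 16 chromosomes.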

How the data were processed

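Each of the 26 libraries gave a table of whole-number counts per gene, not normalized, which the authors made and deposited. They aligned single reads to hg38 with STAR 2.7.11b and counted them with featureCounts of Subread 2.0.6, reverse-stranded, on GENCODE release 46. The RNA was poly(A) RNA from the lysate aliquot kept as input of an immunoprecipitation, so RNA lost when the lysate was cleared is not counted. Gene symbols came from GENCODE release 44, to which 62541 of 63086 identifiers (99.1%) matched, and unmatched ones held at most 0.036% of a library's counts. The immunoprecipitation libraries were not analysed here.

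The tests took in the 9099 protein-coding genes that exceeded 10 CPM in 12 or more of the 24 transgenic libraries. The counts of these libraries were modelled with a mean for each group in edgeR 4.0.16 under R 4.3.3, with TMM factors of 0.865 to 1.086 and 16 residual degrees of freedom, by glmQLFit and glmQLFTest. Adjusted p-values (Benjamini-Hochberg) took in all 9099 genes, and a gene was called at an adjusted p under 0.05 and a fold above 1.2 (0.26 on the log2 scale). SE was the size of the log2 fold change over the square root of F. The parental libraries were not fitted. The procedure was tested on simulated counts first. Alternatives used DESeq2 1.42.0, other scalings and filters, and left out each library in turn. Counts of members called under these alternatives, or at an unadjusted p, are given without the share of all tested genes.

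The members, roles and other gene lists (other pathway genes, cytosolic ribosomal protein genes and a MYC network) were chosen with earlier results of these data known. Values in each library are printed for the 4 largest rises and falls with arsenite in WT, the 2 largest differences of S181E from WT in control and between their responses, BOP1 and RRS1. DDX21 beside NCL met the last rule, and NOP56 was added after its values were seen. Of the other pathway genes the 2 largest rises and falls are named.

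No 2 libraries held identical counts. The replicate numbers are those of the labels. Same-numbered RQ and WT libraries deviated together, with correlations of 0.291, 0.525 and 0.472 in control and 0.148, 0.147 and 0.15 in arsenite for numbers 1, 2 and 3. For the other comparisons at least 1 number was at or below 0.1. Some of their values were as large: 0.239 and 0.309 for S181E and WT in control (numbers 2 and 3), and 0.421 for Y396E and WT (number 3). The labels do not say whether equal numbers mark paired samples.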

Additional observations from a re-analysis of the deposited data

Results flagged for a closer look

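The arsenite response of 16 members differed between S181E and WT, and of 16 between Y396E and WT, by the interaction term of edgeR's quasi-likelihood test, and each response was the smaller in the mutant. Of all tested genes 6.98% were called higher and 9.41% lower in S181E, and 10.3% and 11.1% in Y396E. In S181E the log2 differences were those of NCL (-0.77), DDX21 (-0.56), WDR75 (-0.49), DDX18 (-0.48), WDR3 (-0.47), NOP58 (-0.46), NOP14 (-0.45), RRN3 (-0.41), UTP18 (-0.39), GNL2 (-0.39), RRP1 (-0.34), PES1 (-0.30), BOP1 (-0.30), WDR43 (-0.29), DKC1 (-0.28) and UTP4 (-0.27). In Y396E they were those of NCL (-0.77), DDX21 (-0.68), WDR75 (-0.47), NOP58 (-0.45), WDR3 (-0.45), NOC3L (-0.43), NOP14 (-0.42), DDX18 (-0.41), GNL2 (-0.40), RRN3 (-0.40), WDR43 (-0.39), DKC1 (-0.39), UTP15 (-0.38), WDR12 (-0.30), PES1 (-0.29) and UTP4 (-0.29). All members named here rose with arsenite in WT. The WT control and arsenite libraries enter both sets, so the sets are not independent of each other. Replicate 2 of the WT control was the lowest of its group for 32 of 39 members. Without it 9 smaller responses were called in S181E and 12 in Y396E, with no share of all tested genes beside these counts.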

How the results depend on the processing

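No member that was called reversed its sign under any alternative. The counts in this section are of members only, without the share of all tested genes called under the same setting. With library totals alone, 1 member was lower in RQ control (GNL2, -0.29), and 3 were called between S181E and WT in arsenite, of which FBL (0.29) and NOC4L (0.27) were higher. The members higher in control then numbered 29 in S181E and 23 in Y396E, and those with a smaller response 24 and 21. That scaling moved the median of all tested genes by about as much as the smaller differences, to 0.15 for arsenite in WT, 0.18 for S181E and 0.14 for Y396E in control. With no fold limit 8 members were called for S181E, 13 for Y396E and 1 for RQ against WT in arsenite. With a limit of 1.5-fold 19 were called for arsenite in S181E and 19 in Y396E, 2 for S181E and 2 for Y396E against WT in control, 1 for Y396E in arsenite, and 1 and 2 for the responses of S181E and Y396E. With only the compared groups in the fit 3 were called for Y396E and 1 for RQ against WT in arsenite. Larger or smaller fold limits change these counts by construction, and the other causes were not tested.

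Leaving out each library in turn gave 35 to 36 called members for arsenite in WT, 30 to 32 in S181E, 31 to 32 in Y396E and 35 to 37 in RQ. Against WT in control the counts were 15 to 23 for S181E, 13 to 21 for Y396E and 0 to 3 for RQ. Replicate 2 of the WT control gave the lowest counts for S181E and Y396E and the highest for RQ. In arsenite they were 1 to 2, 1 to 7 and 0 to 1, where replicate 3 of Y396E gave the lowest and replicate 1 of Y396E the highest for Y396E. Without replicate 2 of WT in arsenite 3 were called there, and without replicate 3 of Y396E in arsenite 1 was called for RQ (UTP20, -0.29). The responses gave 9 to 19 for S181E, 12 to 18 for Y396E and 0 to 0 for RQ. With a replicate block the counts were 36, 31, 31 and 37 for arsenite in WT, S181E, Y396E and RQ, 21, 18 and 0 for the mutants in control, 1, 5 and 0 in arsenite, and 17, 16 and 0 for the responses. The replicate block changed 1 call, adding NOC2L to the smaller responses in S181E at -0.28. Each tested member had at least 339 counts in a library, and NOP2 fell below the filter.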

Other observations

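The other pathway genes are given here by step, beside 36.3% of all tested genes called higher and 35.9% called lower with arsenite in WT. Of 13 further genes of RNA polymerase I and its factors 8 rose and 2 fell with arsenite in WT, with a median log2 fold change of 0.29. Of 39 further small subunit genes 24 rose and 7 fell (median 0.46), and of 43 further large subunit genes 28 rose and 1 fell (median 0.47). Of 8 tested genes of the MYC network, MYC included, 1 rose and 6 fell (median -0.52). Against WT in control MYC differed by -0.16 ± 0.05 in S181E and -0.21 ± 0.05 in Y396E (SE), neither past 1.2-fold. MYC lies in the chromosome 8 stretch that was lower in both populations.

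Relative to the median of all tested genes, the median member was higher with arsenite in each population, on the log2 scale by 0.83 for WT, 0.58 for S181E, 0.60 for Y396E and 0.82 for RQ. The summed level of the members in arsenite was 8365 ± 130 CPM for RQ, 8482 ± 53.9 for Y396E, 8519 ± 37.7 for WT and 8668 ± 40.6 for S181E (mean ± SD, n = 3), a narrower range over the populations than in control. The parental libraries summed to 5667 CPM in control and 8606 CPM in arsenite.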
